A study of Mus musculus with 76 samples.

Results

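Flt3 transcripts divided the iHPCs into 39 positive cells, with at least 10 TPM, and 36 negative cells, with less than 1 TPM, of 76 cells in all. The classes were thus chosen by the measured Flt3 level alone. TPM is a gene's share of transcripts after scaling for its length. A single cell lay between both limits and was left out. The iHPCs are mouse progenitors made from pluripotent stem cells in which Runx1, Hoxa9 and Hoxa10 can be induced, so that cells of both classes carry the same 3 introduced factors. Each library was made from 1 sorted cell. No culture, animal or sort is named for any cell, so all 76 cells count as 1 sample. Without replicate samples nothing could be tested, and every difference below describes these cells only. Intervals in brackets are exact Clopper-Pearson 95% intervals of a share of cells and cover the counting of cells only.

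Flt3 encodes a receptor tyrosine kinase for the cytokine Flt3 ligand. In mouse bone marrow it is known from multipotent progenitors that lean towards lymphoid and myeloid fates and from the precursors of dendritic cells, whereas the most primitive stem cells and the progenitors of red cells and platelets carry little of it. Ligand binding activates the MAP kinase, phosphatidylinositol 3-kinase and Stat pathways.

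The gene lies on chromosome 5 (147330741 to 147400489, GRCm38.p6, RefSeq). Its level was at 0 in 30 cells and above 0 but under 1 TPM in another 6. The cell just below the upper limit, B10, had 6.85 TPM, and the lowest positive cell, D9, had 11.2 TPM, followed by 24.8 TPM in cell E4. Negative cells next to the lower limit had 0.556 TPM (G9) and 0.537 TPM (E2). In the positive cells the level ran from 11.2 to 272 TPM with a median of 91.0 TPM, and 30 of them reached 50 TPM. The positive share was thus 51.3% of all cells (39.6 to 63%). These values chose the classes and are given as a description.

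**Figure D1:**
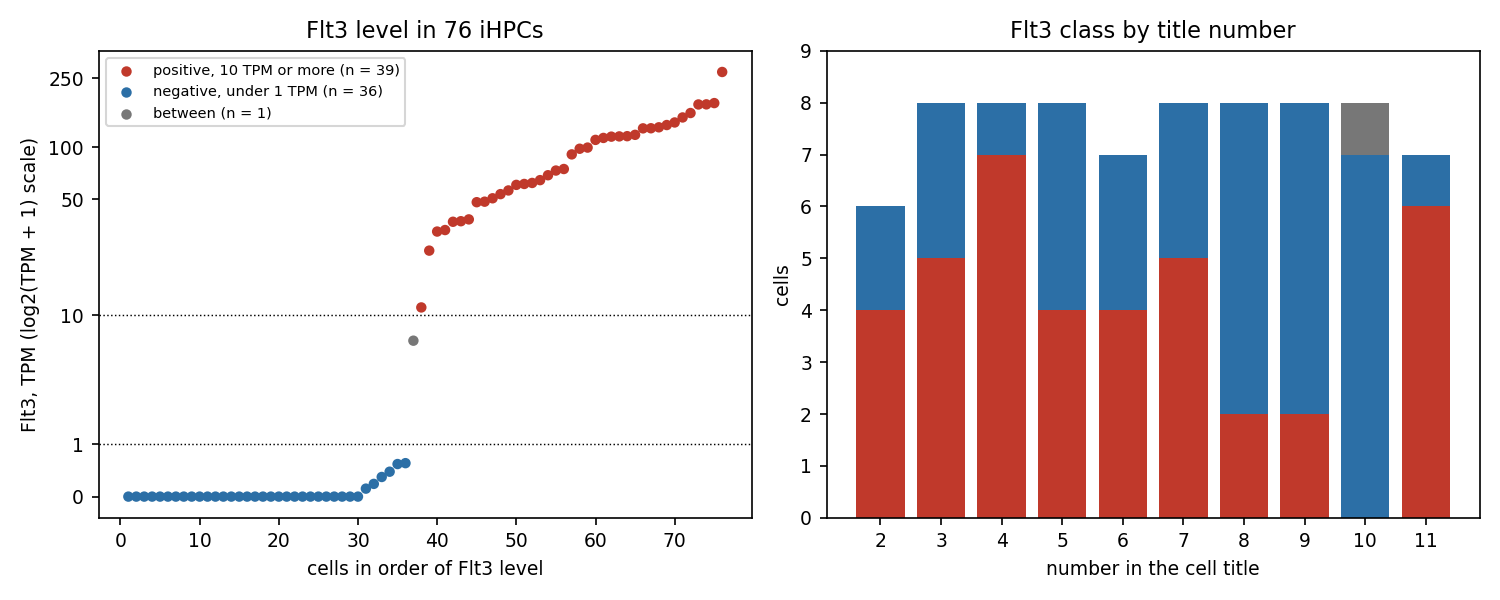
The left panel plots Flt3 in TPM, on a log2(TPM + 1) axis, for the 76 cells in order of their level, with dotted lines at 1 and 10 TPM; the right panel counts the positive, negative and in-between cells for each title number. Only 1 cell lies between the lines, and 0 of 8 cells with title number 10 were positive.

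Positive cells were unevenly spread over the titles, each made of a letter (A to H) and a number (2 to 11). Of the 24 cells with numbers 8 to 10, 4 were positive, against 35 of the other 52; this range of numbers was chosen after its values were seen. Title number 10 had 0 positive of 8 cells and number 11 had 6 of 7. The share was 64.9% (47.5 to 79.8%) among numbers 2 to 6 and 38.5% (23.4 to 55.4%) among numbers 7 to 11. By letter it ran from 30% (E) to 77.8% (A). What the titles stand for is not given in the labels, and their part in the differences below was not tested; values within both ranges are given for tested genes whose direction differs between them, and for some others.

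More genes were found in the positive cells. They had a median of 4307 genes at 1 TPM or more (range 3182 to 5871, SD 644), and the negative cells 4017 (2465 to 5992, SD 641). The ranges overlapped almost fully. Library depth is not kept in TPM and is unknown. A gene at 0 in a single cell can be a failed capture. Of 14 housekeeping genes, 8 reached 10 TPM in every cell of both classes, the list's median difference was 0, and 1 gene was at least 20 points higher. That gene, Tbp, a general transcription factor, reached 10 TPM in 24 of 39 positive cells (61.5%, 44.6 to 76.6%) and in 10 of 36 negative cells (27.8%, 14.2 to 45.2%). Whether a negative cell held Flt3 transcripts that were not captured cannot be told from these values. All differences were computed a second time as the mean of the differences within cells above and below the median number of genes, in which 27 positive stood beside 11 negative and 12 beside 25. There the medians of genes per cell were 4632 and 4583 in the upper and 3890.5 and 3763 in the lower group. This second value is called the depth-split difference.

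The share of cells in which a gene reached 10 TPM was compared over the 7805 genes that did so in at least 8 cells, Flt3 left out. Over all of them the share was a median of 4.49 percentage points higher in positive cells, with 5341 genes higher by any amount (68.4%) and 2105 lower (27%). At least 20 points separated the classes for 559 genes that were higher in positive cells (7.16%) and for 38 that were lower (0.487%). As depth-split differences the median was 0.527 points, and 291 genes were higher (3.73%) and 183 lower (2.34%). The surplus of higher over lower genes was thus smaller among cells with similar numbers of detected genes. Mean log2(TPM + 1) was at least 1 higher for 1013 genes (13%) and at least 1 lower for 129 (1.65%). Among the 223 genes tested from the 23 lists described below, 21 were at least 20 points higher (9.42%) and 1, Gata2, was lower (0.448%), shares close to those of all genes.

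**Figure D2:**
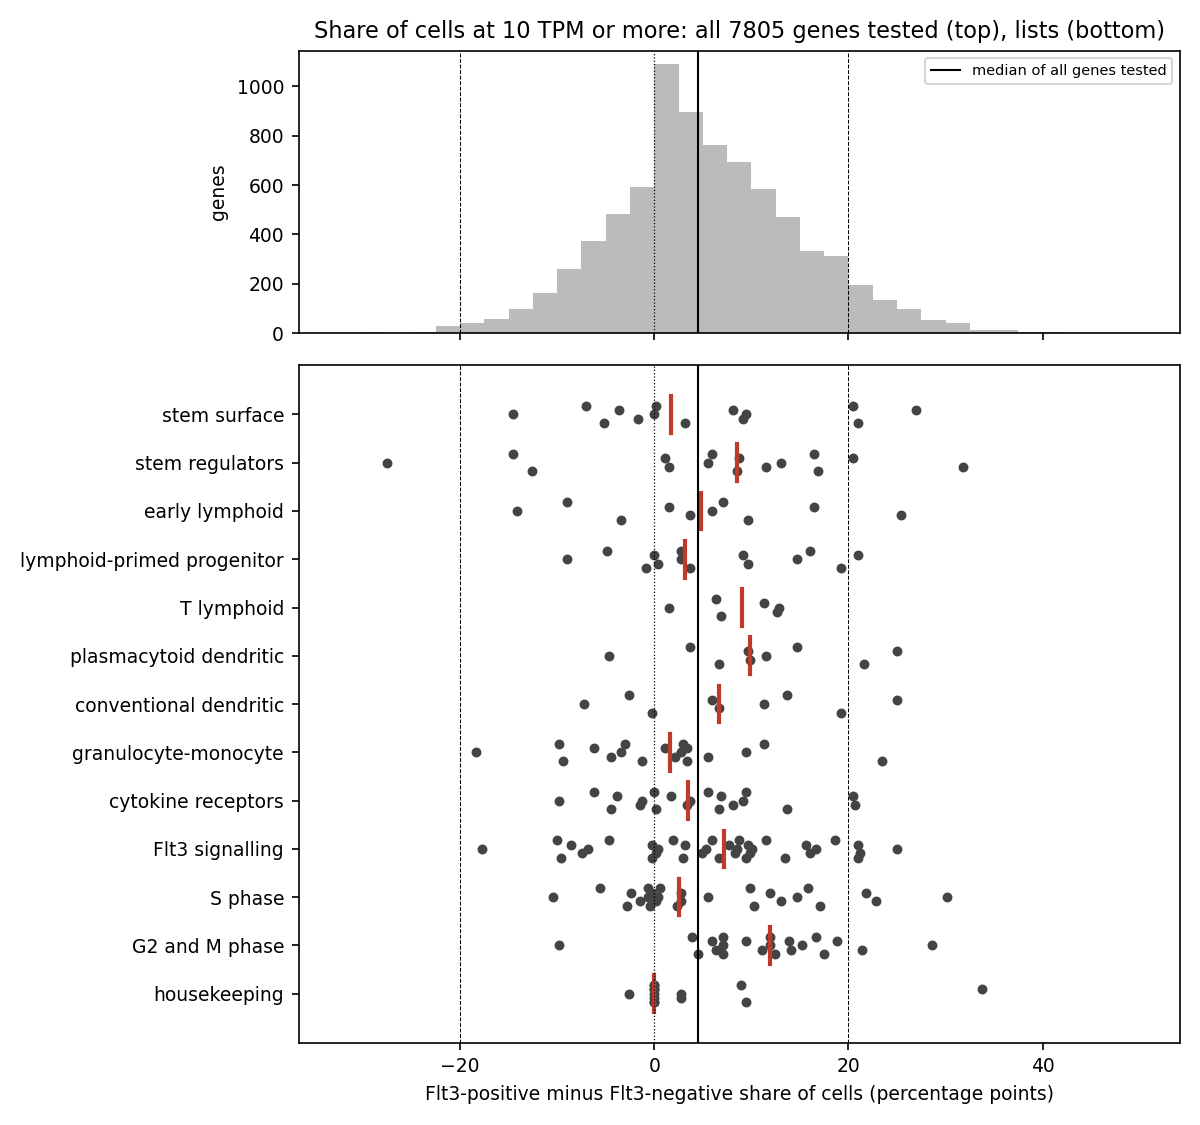
The horizontal axis is the share of Flt3-positive minus the share of Flt3-negative cells at 10 TPM or more, in percentage points, for all 7805 genes tested (top, number of genes per bin) and for the tested members of 13 lists (bottom, 1 point per gene, red bars are list medians). Dashed lines mark 20 points and the black line the median of all genes, 4.49; the G2 and M phase genes have a median of 12 and the plasmacytoid dendritic genes 9.83, while the erythroid list, at 10.4, is among the 10 lists not drawn.

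Of the stem cell surface genes, Ly6a, Cd27 and Kit were found in more of the Flt3-positive cells. Of 14 tested members of 20, 3 were at least 20 points higher and 0 lower, against 7.16% and 0.487% of all genes. The list's median was 1.71 points, next to 4.49 for all genes. Ly6a, which encodes the stem cell antigen Sca-1 (chromosome 15, 74994877 to 74998031), was at 10 TPM in 30 of 39 positive cells (76.9%, 60.7 to 88.9%) and in 18 of 36 negative cells (50%, 32.9 to 67.1%). Its level ran from 0 to 2141 TPM with a median of 265 TPM in positive cells and to 2154 TPM with a median of 28.1 TPM in negative cells. The depth-split difference was 32.8 points, and it was 25.3 and 25.5 points within the lower and upper range of title numbers. Cd27, a co-stimulatory receptor found on lymphoid-leaning progenitors, was in 19 positive and 10 negative cells (depth-split difference 21.7 points). Kit, the receptor for stem cell factor, was in 21 (53.8%, 37.2 to 69.9%) and 12 cells (33.3%, 18.6 to 51%), with highest levels of 302 and 87.7 TPM, and its depth-split difference was 13.7 points. Cd34 was in 37 and 36 cells with medians of 675 and 640 TPM. Procr, which marks the most primitive stem cells, was in 3 positive and 8 negative cells, and Slamf1, another such marker, in 0 and 1.

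Flt3, Kit and Ly6a together define the surface gate of multipotent progenitors in mouse marrow. Kit and Ly6a were both at 10 TPM in 17 of the Flt3-positive cells (43.6%, 27.8 to 60.4%) and in 5 of the Flt3-negative cells (13.9%, 4.67 to 29.5%). Independent detection of Kit and Ly6a would give 16.2 and 6 cells, so within each class the pair occurred about as often as its members imply. Neither gene was found in 5 positive and 11 negative cells. Kit, Ly6a and Cd27 were found together in 10 positive and 2 negative cells. These combinations were chosen after values were seen.

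Of 15 tested regulators of stem cells, 12 were higher in Flt3-positive cells by any amount and 3 lower, against 68.4% and 27% of all genes. Msi2 and Etv6 were at least 20 points higher and Gata2 more than 20 points lower among 15 tested members of 25, whose median was 8.55 points. Of all genes, 7.16% were that far higher and 0.487% that far lower. Msi2, an RNA-binding protein that sustains stem cells (chromosome 11, 88339382 to 88718306), was at 10 TPM in 20 positive cells (51.3%, 34.8 to 67.6%) and 7 negative cells (19.4%, 8.19 to 36%). Its levels were low, with medians of 10.7 and 0.440 TPM and highest cells of 53.6 and 41.3 TPM, so that many cells lie near the limit of 10 TPM. The depth-split difference was 34.4 points. Etv6, an Ets-family repressor, was in 21 and 12 cells, and its difference was 31.7 points in title numbers 2 to 6 and 5.22 in numbers 7 to 11. Meis1, a partner of Hox proteins, was in 12 positive and 5 negative cells.

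Gata2, a zinc finger factor of stem, mast cell and megakaryocyte-erythroid progenitors (chromosome 6, 88193891 to 88207032), was found in fewer Flt3-positive cells, opposite to the median of all genes. It reached 10 TPM in 12 positive cells (30.8%, 17 to 47.6%) and 21 negative cells (58.3%, 40.8 to 74.5%), with medians of 0.111 and 28.6 TPM. Among cells that had it, the median level was 86.6 TPM in positive and 53.6 TPM in negative cells, so the class with fewer such cells had the higher level in them. The depth-split difference was -23.2 points, from -15.8 in the upper and -30.7 in the lower group. Within title numbers 2 to 6 it was -13.5 points and within 7 to 11 -29.6. Of all 7805 genes, 38 were as far as 20 points lower, and Gata2 was the only list member among them. Mcpt8, a protease gene of basophils, was also in fewer positive cells, 2 against 9, just short of 20 points (-19.9), although 1 positive cell had 7380 TPM. Cpa3, of mast cells, was in 28 and 25 cells, with -10.3 points in title numbers 2 to 6 and 14.8 in numbers 7 to 11. Of the introduced factors, Runx1 was in 37 and 32 cells with medians of 99.6 and 111 TPM (7.69 points in title numbers 2 to 6 and -0.29 in numbers 7 to 11), Hoxa9 in 3 and 8, and Hoxa10 in 7 and 11. Either Hox gene was found in 7 positive cells (17.9%, 7.54 to 33.5%) and 13 negative cells (36.1%, 20.8 to 53.8%). Gene values do not separate introduced copies from the chromosomal genes.

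**Figure D3:**
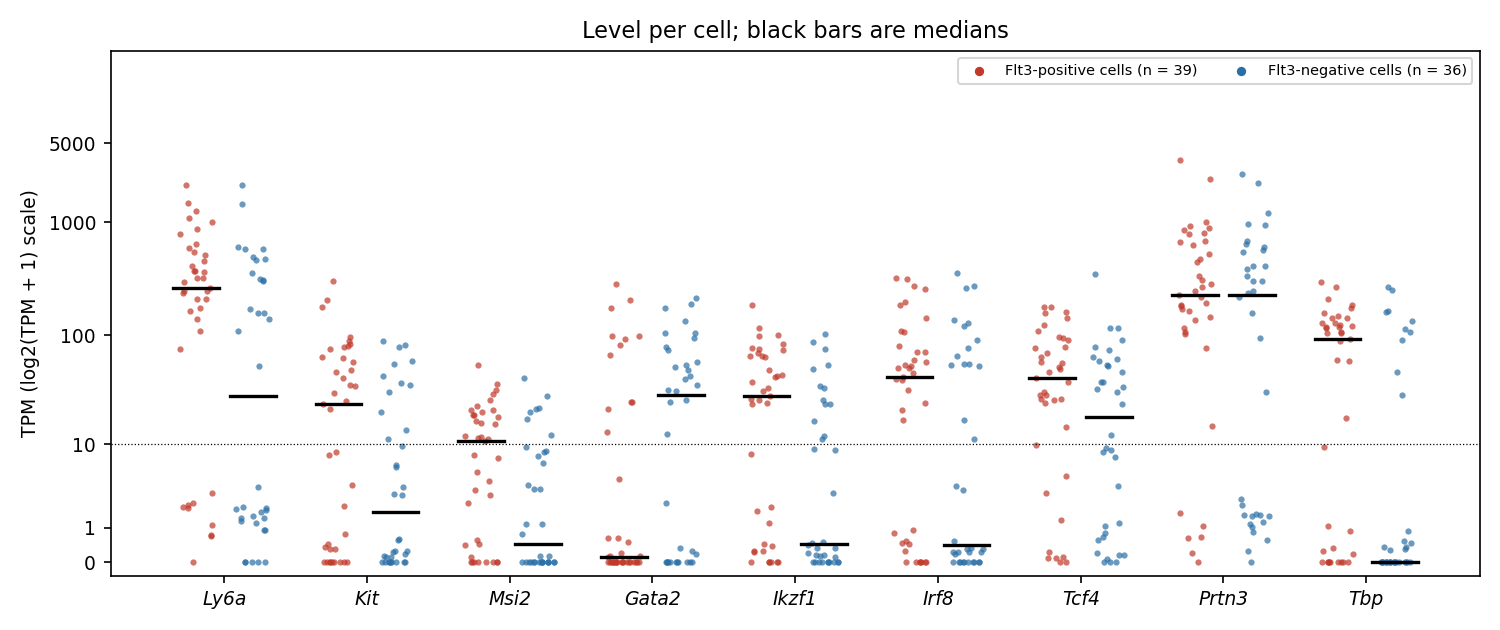
The level of 9 genes in each cell is plotted in TPM on a log2(TPM + 1) axis, Flt3-positive cells in red and Flt3-negative cells in blue, with black bars at the medians and a dotted line at 10 TPM. Most genes have cells at or near 0 and cells above 10 TPM in both classes; Gata2 has the higher median in negative cells (28.6 against 0.111 TPM), and Tbp, the 1 of 14 housekeeping genes past 20 points, was picked for its difference.

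Of the early lymphoid regulators, Ikzf1 had the widest difference. Of 10 tested members, 7 were higher in positive cells by any amount, against 68.4% of all genes. At least 20 points higher was 1 member, against 7.16% of all genes, and 0 were lower by as much. The list median was 4.81 points, next to 4.49 for all genes. Ikzf1 encodes Ikaros, a zinc finger protein needed for lymphoid development (chromosome 11, 11684962 to 11772930). It reached 10 TPM in 24 positive cells (61.5%, 44.6 to 76.6%) and 13 negative cells (36.1%, 20.8 to 53.8%), with medians of 28.2 and 0.440 TPM and highest cells of 186 and 103 TPM. Its difference was 21.7 points depth-split, with 4.71 points in the upper and 38.7 points in the lower group. Satb1, a chromatin organiser of lymphoid progenitors, was in 14 and 7 cells, with opposite directions in title numbers 2 to 6 (34.6 points) and 7 to 11 (-8.41). Bcl11a was in 20 and 15 cells and Sox4 in 14 and 18. Tcf3, which encodes the E2A proteins, was in 24 and 20 cells, with 12.8 points in numbers 2 to 6 and -3.19 in numbers 7 to 11. Mef2c, in 22 and 19 cells, also changed direction, from 20.5 to -16.5 points.

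Il7r, Ly6d and the genes Rag1, Rag2 and Dntt were rare in both classes, while several T lymphoid genes were found in more cells. Il7r, the interleukin 7 receptor, reached 10 TPM in 3 of 39 positive cells (7.69%, 1.62 to 20.9%), up to 383 TPM, and in 0 of 36 negative cells, which allows a share of up to 8.33% of cells with the gene detected (taking 3 cells as the limit that a count of 0 allows, in place of the exact interval). Ly6d was in 4 positive and 1 negative cell. Rag1 and Dntt, which act in receptor gene rearrangement, were in 0 cells of either class, which by the same limit allows up to 7.69% and 8.33%, and Rag2 was in 3 and 2. Among genes of lymphoid-primed progenitors, 1 of 14 tested was 20 points higher (Cd27), against 7.16% of all genes, and the median was 3.21 points. The cytokine gene Ltb was in 22 and 15 cells, and the migration regulator Dock2 in 14 and 6. Il12a, a subunit of interleukin 12, was in 16 and 9 cells, with 34.6 points in title numbers 2 to 6 and -3.77 in numbers 7 to 11. Of the T lymphoid list, all 6 tested members were higher, though 0 by 20 points (median 9.08), where 68.4% of all genes were higher by any amount: Lat, an adaptor of T cell receptor signalling, was in 32 and 25 cells, the kinase gene Lck in 18 and 12, Gata3 in 12 and 7, and Tcf7 in 9 and 6. Cd3e and Bcl11b were in 0 cells of either class. Of the B lymphoid list only Cd72 (7 and 3 cells) and Cd79b (15 and 11) could be tested, and Cd79a was in 0 cells.

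Dendritic cell genes gave 2 regulators, Irf8 and Tcf4, at least 20 points higher in Flt3-positive cells, while the other members were uneven. Irf8, a factor of dendritic cell and monocyte progenitors (chromosome 8, 120736358 to 120756694), reached 10 TPM in 26 positive cells (66.7%, 49.8 to 80.9%) and 15 negative cells (41.7%, 25.5 to 59.2%), with medians of 41.9 and 0.426 TPM. Its highest cells had 319 and 360 TPM. The difference of 25 points was 11.9 points depth-split. Tcf4, an E protein that drives plasmacytoid dendritic cells, was in 29 and 19 cells, with medians of 41 and 18.1 TPM; its difference was 43.2 points in title numbers 7 to 11 and -2.56 in numbers 2 to 6. In all, 2 of 9 tested plasmacytoid members were 20 points higher (median 9.83, depth-split 7.68) and 1 of 9 conventional members, again Irf8 (median 6.62, depth-split 5.83). Of all genes, 7.16% were that far higher (median 4.49, depth-split 0.527). Bst2, a tetherin expressed by plasmacytoid cells and induced by interferon, was in 35 and 27 cells. Cd74, the invariant chain of MHC class II, was in 14 and 6 cells, but its highest level, 1138 TPM, was in a negative cell. The MHC class II gene H2-Ab1 was in 21 and 17 cells. Clec10a, a lectin of conventional dendritic cells, was in 27 and 20 cells, with 47.8 points in title numbers 2 to 6 and -7.25 in numbers 7 to 11. Spi1, listed under its older symbol Sfpi1, was in 38 and 31 cells at medians of 588 and 538 TPM. Cst3, also of the conventional list, was in 38 and 36 cells at medians of 818 and 674 TPM. Id2, of the same list, was in 24 and 20 cells, with 20.5 points in title numbers 2 to 6 and -7.54 in numbers 7 to 11. Some other members were rare: Zbtb46 was in 1 positive cell, Itgax in 1 cell of each class, Batf3 in 2 and 1, and Xcr1, Ciita and H2-Eb1 in 0. Spib of plasmacytoid cells was in 1 positive and 0 negative cells.

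Irf8 and Gata2, which lay in opposite directions, were also counted as a pair. Irf8 without Gata2 was found in 19 positive cells (48.7%, 32.4 to 65.2%) and 6 negative cells (16.7%, 6.37 to 32.8%). Gata2 without Irf8 was found in 5 positive cells (12.8%, 4.30 to 27.4%) and 12 negative cells (33.3%, 18.6 to 51%). Both genes were in 7 and 9 cells and neither in 8 and 9. Irf8 and Ikzf1 were found together in 17 positive and 6 negative cells. These pairs were chosen after values were seen. Irf8 itself was in 26 and 15 cells, Gata2 in 12 and 21 and Ikzf1 in 24 and 13. Differences of the single genes thus enter the pair counts, and whether the pairs go beyond them was not tested.

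Granulocyte and monocyte genes lay on both sides. Of 18 tested members of 27, 1 was 20 points higher and 0 were lower, against 7.16% and 0.487% of all genes. The list's median of 1.6 points became -3.43 depth-split. Prtn3, a protease of neutrophil granules, was in 33 positive cells (84.6%, 69.5 to 94.1%) and 22 negative cells (61.1%, 43.5 to 76.9%), although both medians were 227 TPM. Mpo, myeloperoxidase, was in 18 and 20 cells with medians of 1.92 and 108 TPM and highest cells of 1072 and 4053 TPM. Ms4a3, of granulocyte-monocyte progenitors, was in 8 and 14 cells and Ctsg in 14 and 14 (3.21 points in title numbers 2 to 6 and -12.5 in numbers 7 to 11). Csf1r, the receptor for the macrophage growth factor, was in 7 and 10 cells, and Elane in 0 and 2. S100a8 and S100a9, of neutrophils, reached 10 TPM in 0 cells.

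Of 20 tested cytokine receptor genes, 2 were at least 20 points higher in positive cells, Kit and Ifnar1 (20 and 11 cells), and 0 were lower. Of all genes, 7.16% were that far higher and 0.487% that far lower. The list's median of 3.53 points, next to 4.49 for all genes, became -0.613 depth-split. There Kit had 13.7 points and Ifnar1 14.1. Il2rg, the common gamma chain, was in all 39 and all 36 cells at medians of 1393 and 1305 TPM. Flt3l, which encodes the Flt3 ligand, was in 14 of 39 positive (35.9%, 21.2 to 52.8%) and 13 of 36 negative cells (36.1%, 20.8 to 53.8%), with 14.4 points in title numbers 2 to 6 and -10.1 in numbers 7 to 11. The 36 tested genes of signalling below Flt3 had a median of 7.16 points that was 2.45 depth-split. Of these, 4 were 20 points higher and 0 lower, beside 7.16% and 0.487% of all genes. Among them were Stat3 (31 and 21 cells), Map2k2 (32 and 22) and Pik3r1 (19 and 10), which encode a transcription factor, a MAP kinase kinase and the regulatory subunit of phosphatidylinositol 3-kinase. Pik3r1 had a difference of 40.3 points in title numbers 7 to 11 and -8.01 in numbers 2 to 6. The catalytic subunit gene Pik3cd lay the other way, in 18 and 23 cells, as did the adaptor gene Grb2, in 19 and 21. Both had opposite directions in the ranges of title numbers: Pik3cd had -39.4 points in numbers 2 to 6 and 3.48 in numbers 7 to 11, and Grb2 had 15.7 and -29.6. Stat5a was in 12 and 10 cells (-1.6 and 7.25 points in the same ranges) and Stat5b in 12 and 11 (-12.8 and 4.93). Of the feedback inhibitors, Socs2 was in 34 and 28 cells and Cish in 14 and 16 (-9.94 and 7.83 points in the same ranges).

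Of 21 tested G2 and M phase genes, 20 were higher by any amount in Flt3-positive cells, against 68.4% of all genes, and 1, Cenpa, was lower. At least 20 points were reached by 2 of them, against 7.16% of all genes, and the median of 12 points became 2.57 depth-split. Cdc20, which activates the anaphase-promoting complex, was in 22 positive cells (56.4%, 39.6 to 72.2%) and 10 negative cells (27.8%, 14.2 to 45.2%) with medians of 68.7 and 0.348 TPM. Its depth-split difference was 19.8 points. Ccnb1, cyclin B1, was in 17 and 8 cells, with highest levels of 1430 and 169 TPM. Its depth-split difference was 12 points, from 2.69 in the upper and 21.3 in the lower group. At least 5 members of the list were at 10 TPM in 19 positive cells (48.7%, 32.4 to 65.2%) and 7 negative cells (19.4%, 8.19 to 36%), a limit chosen after values were seen. This count was not computed depth-split, although positive cells had more detected genes. Of 26 S phase genes, 3 were 20 points higher, Mcm2 (28 and 15 cells), Chaf1b (23 and 13) and Cdc6 (15 and 6), against 7.16% of all genes. By any amount, 17 S phase genes were higher and 9 lower. The S phase median of 2.56 points became -2.09 depth-split, where all genes had 0.527. Pcna was in 28 and 26 cells and Mcm7 in 26 and 26, the latter with -22.1 points in title numbers 2 to 6 and 8.12 in numbers 7 to 11. Mcm2, a subunit of the replication helicase, had medians of 93.2 and 0.435 TPM.

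Of the lists for other cell types, the 4 tested erythroid genes lay higher and the 2 tested macrophage genes lower in positive cells. The erythroid median was 10.4 points (10.5 depth-split) and the macrophage median -9.29 (-17.8 depth-split). Of all genes, 68.4% were higher and 27% lower by any amount. The mast cell and basophil list, also with 2 tested members, had a median of -8.76 points (-8.76 depth-split), with 1 member higher and 1 lower. Car2, carbonic anhydrase 2 of the erythroid list, was in 27 positive and 15 negative cells (depth-split difference 28.3 points), and the transferrin receptor gene Tfrc in 11 and 4, while the red cell regulator Gata1 was in 0 cells and Klf1 in 1 positive cell. The summed level of the erythroid list ran from 249 to 4546 TPM in positive and from 274 to 6151 TPM in negative cells. Emr1 (F4/80) of the macrophage list was in 26 and 28 cells, and its C1q genes were in 0. Kdr of the endothelial list, Pou5f1 of the pluripotency list and Col1a1 of the stromal list were in 0 cells of either class. Kdr does not stand for its list: of 11 endothelial members in the data, 3 were in 0 cells and 5 could be tested. Cells of each class had a median of 2 endothelial members at 10 TPM, with median summed levels of 606 TPM in positive and 673 TPM in negative cells. Ptprc (CD45), common to blood cells, was at 10 TPM in 35 of 39 positive and 25 of 36 negative cells, with medians of 89.0 and 57.7 TPM. It was thus just past 20 points higher in positive cells, as were 7.16% of all genes tested.

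The 10 genes with the widest positive differences belonged to none of the lists. Bcl7c, a subunit of a chromatin remodelling complex, was in 32 positive cells (82.1%, 66.5 to 92.5%) and 12 negative cells (33.3%, 18.6 to 51%), with medians of 78.3 and 0 TPM. It held at 48.2 points depth-split and at 52.6 and 45.2 points in both ranges of title numbers. Next came Cdca4 (30 and 12 cells), Med17 of the Mediator complex (22 and 5), Lmnb1, lamin B1 (23 and 6), Ttc3 (25 and 8), Rnf145 (28 and 11), Rnf25 (22 and 6), Ccdc104 (23 and 7), Mzt1 (27 and 11) and Ccnl1 (29 and 13). In the other direction, Csk, a kinase that restrains Src-family kinases, was in 7 positive cells (17.9%, 7.54 to 33.5%) and 17 negative cells (47.2%, 30.4 to 64.5%). Eci1, an enzyme of fatty acid oxidation, was in 26 and 34 cells at medians of 109 and 236 TPM, and its intervals, 49.8 to 80.9% and 81.3 to 99.3%, did not overlap. Intervals were apart for 45 higher genes (0.577%) and 2 lower genes (0.0256%) of 7805. Cells are not replicates and Eci1 was picked for its difference, so intervals lying apart are a description and no test. Also lower were Phf14 (5 and 14 cells), B3gat3 (2 and 11), the lactate transporter gene Slc16a1 (10 and 18), the calcium pump gene Atp2a2 (8 and 16), Smek1 (6 and 14), Ptpra (17 and 24) and Chd2 (3 and 11). At 20 points in all cells, depth-split and within both ranges of title numbers alike, 125 of the 559 higher genes and 7 of the 38 lower genes remained. Of the 223 list genes tested, 3 were among the 125, namely Ly6a, Car2 and Mcm2, beside 125 of all 7805 genes. Among the 7 lower genes were 0 list genes.

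**Figure D4:**
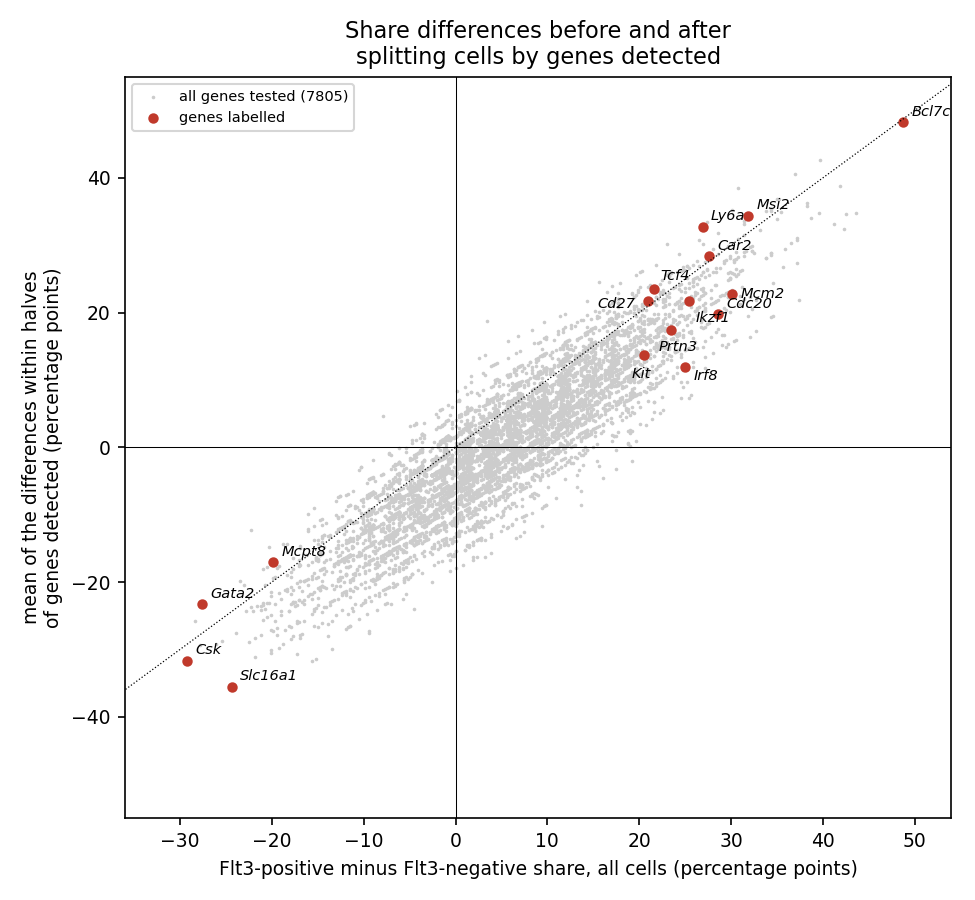
Each of 7805 genes is placed by its share difference over all cells (horizontal axis) and by the mean of its differences within the cells above and below the median number of genes detected (vertical axis), both in percentage points of Flt3-positive minus Flt3-negative cells; the dotted line marks equal values and labelled genes are red. The median of all genes is 4.49 horizontally and 0.527 vertically, Irf8 moves from 25 to 11.9 points, and Ly6a, Msi2, Car2 and Bcl7c stay within 6 points of the line.

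Genes were also ranked by how closely their level followed that of Flt3. Across all 76 cells the genes most like Flt3 by Spearman's rho were Bcl7c (0.48), Isoc2b (0.42), Haus6 (0.42), Elk3 (0.41), the transcribed pseudogene Gm3219 (0.41) and Ubl7 (0.40), where all cells share the uneven numbers of detected genes. Among the 39 positive cells alone these values were 0.19, 0.29, 0.08, 0.23, 0.20 and 0.39 in the same order. There the values were 0.10 for Ly6a, 0.29 for Kit, 0.14 for Ikzf1, -0.04 for Irf8, 0.15 for Gata2, and -0.41 for Ms4a3. The share difference of Isoc2b was 50 points in title numbers 2 to 6 and -4.06 in numbers 7 to 11. Gm3219 was low, with medians of 7.18 TPM in positive and 0 TPM in negative cells, and reached 10 TPM in 13 and 9 cells. These correlations are descriptions over cells of 1 sample.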

How the data were processed

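RNA of 76 single iHPCs was sequenced after amplification with the Discover-sc WTA Kit V2, per the labels' protocols. The authors deposited 1 table of TPM, whose columns each sum to 1000000 over 15192 genes, so depth is unknown; 66.3% of values were 0. StringTie 1.3.4, HISAT2 2.1.0, SAMtools 0.1.19 and bcl2fastq are named with the mm10 build, per the submitters' processing notes. Which annotation or gene filter was used is not stated there.

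Values were analysed with Python 3.11.15, pandas 2.3.3, NumPy 2.4.6 and SciPy 1.17.1. Flt3 classes, the limit of 10 TPM, the filter of at least 8 cells, the size of 20 percentage points and the pseudocount of 1 are given with the results. With 1 sample, no test across cells was made. The computation was tested on simulated data. The table held 372 of the 399 genes in 23 lists, 5 of them under older symbols. Positions are from RefSeq, GRCm38.p6, in which 92.3% of symbols were found. The classes and lists were chosen with earlier results of these data known.

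Genes were named by a rule: from each of 9 lists the 4 tested members with the greatest share difference and the 2 in most cells, from 7 further lists the 2 with the greatest difference, over all genes outside ribosomal-protein and predicted genes the 10 highest and 10 lowest differences, and the 6 genes with the highest rho with Flt3. This gave 83 genes, not all of which are reported here. Other genes in the text (Tbp, Ptprc, Slamf1, Il7r, Ly6d, Rag1, Rag2, Dntt, Mpo, Ctsg, Elane, Hoxa9, Hoxa10, Flt3l, Tcf7, Gata3, Klf1, Emr1, H2-Ab1, Batf3, Itgax, Zbtb46, Spib, Pcna, Mcm7, Cdc6, Cenpa, Stat5a, Stat5b, Pik3cd, Grb2, Socs2, Cish and those in 0 cells) were chosen after their values were seen. Alternatives are given in the closing section.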

Additional observations from a re-analysis of the deposited data

How the results depend on the processing

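Titles, detected genes and the limit for Flt3 were varied; leaving out title number 10 was chosen after seeing the data. The 559 genes with a share at least 20 points higher in Flt3-positive cells became 1202 in title numbers 2 to 6 and 913 in numbers 7 to 11, with fewer cells, 291 depth-split and 79 at 30 points. The 38 lower genes became 247 and 315 in the same ranges of numbers, 183 depth-split, 111 in cells with at least 3500 genes, 69 with positive cells at 50 TPM or more, 68 with negative cells at exactly 0, 65 without title number 10 and 0 at 30 points. The 1013 genes with a mean log2 level at least 1 higher became 1692 in numbers 2 to 6, 594 depth-split, 1972 with a pseudocount of 0.1 and 286 at a difference of 1.5. The 129 lower ones became 493 and 616 in the ranges of numbers, 417 depth-split, 264 with at least 3500 genes, 203 at 50 TPM, 198 at exactly 0, 203 without title number 10, 358 with a pseudocount of 0.1 and 15 at a difference of 1.5. Other causes were not tested. List medians moved by over 5 points for stem regulators (2.03 in numbers 7 to 11), early lymphoid genes (-2.36 with at least 3500 genes, -4.49 in numbers 7 to 11), conventional dendritic genes (18.6 in numbers 2 to 6, 0 in numbers 7 to 11, 1.5 at 1 TPM), plasmacytoid dendritic genes (4.64 in numbers 7 to 11) and granulocyte-monocyte genes (-3.43 depth-split). The stem surface, lymphoid-primed and cytokine receptor medians did not. Of 42 named genes past 20 points, 27 stayed past it depth-split and 42 kept their direction there. Of all genes past 20 points, 253 of the 559 higher and 33 of the 38 lower stayed past it depth-split. Named genes were largely chosen for their differences in these same cells, so their counts are no separate support. The exceptions in direction elsewhere were Tcf4 (-2.56) and Pik3r1 (-8.01) in numbers 2 to 6, Isoc2b (-4.06) in numbers 7 to 11 and Phf14 (1.5 at 1 TPM). No paired analysis was possible because all cells belong to 1 group.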
